A study of Mus musculus with 4 samples.

Results

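Interferon-induced antiviral genes sit in families of neighbouring copies. Here 59 genes chosen by symbol from such families were examined for accessible chromatin in resting helper T cells of the mouse. The members are the protein-coding genes on chromosomes 1 to 19 whose symbols start with Gbp, Ifit, Oas, Ifi2, Ifi44, Irgm or Iigp, together with Isg15, Isg20, Rsad2, Eif2ak2, Usp18 and Bst2. They are 59 of 20665 protein-coding genes on those chromosomes. The prefix Ifit also takes in the 7 Ifitm genes, and Ifi2 takes in the 3 Ifi27 genes. The symbol rule does not ask whether each gene is induced by interferon or acts against viruses. The 4 other symbols with these prefixes, Ifi203-ps, Gbp2-ps, Gbp11 and Oas1b, are annotated as pseudogenes and were left out.

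ATAC-seq reads out open chromatin, since its transposase inserts sequencing tags where nucleosomes leave the DNA free. It was performed on naive CD4+ T cells from spleen and pLN of DDX55 KO mice (2 libraries) and of WT mice (2 libraries). The labels give no strain, age or treatment, do not say how or in which cells the knockout was made, and do not say whether libraries came from separate animals. The data are 1 merged list of 64525 regions on mouse build mm10, with a chromosome, a start and an end for each and no value for any library. Every value below therefore describes the DDX55 KO and WT libraries together, and no difference between them, no spread between replicates and no sequencing depth can be given. The Ddx55 gene itself (chromosome 5, 124552832 to 124569660) had 1 region at its ends, 842 bp wide, and which libraries gave it is not known. All 10 marker genes of naive CD4 T cells had a region within 1 kb of a gene end, against 0 of 6 B cell markers, 1 of 4 natural killer cell markers (Eomes), 1 of 2 CD8 T cell markers (Cd8b1) and 3 of 6 myeloid markers (Csf1r, Cd14 and Itgam, with regions up to 171, 453 and 1435 bp wide). The share over all protein-coding genes on chromosomes 1 to 19 was 54.1%. Of the markers without a region at an end, Pax5 (5), Blk (2), Cd8a (1) and Adgre1 (1) had regions inside the gene. The part of other cell types in the regions described below was not tested.

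Type I interferons signal through their receptor and the kinases Jak1 and Tyk2 to transcription factors, Irf9 among them, that bind the interferon-stimulated response element (ISRE), a repeat of GAAA in promoters. Interferon gamma acts largely through another element, GAS. The induced proteins act at many steps of infection: Ifit proteins bind viral RNA, Oas enzymes sense double-stranded RNA and activate RNase L, Gbp and Irgm GTPases act on vacuoles and bacteria inside cells, and the Ifi200 proteins include DNA sensors.

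Of the 59 members, 36 had a region within 1 kb of a gene end (61.0%, 95% exact binomial interval 47.4 to 73.5%), against 54.1% of all protein-coding genes on the same chromosomes. The background share lies inside the interval of the members. The intervals cover counting error over genes only, and neighbouring copies are not independent. A region lay in the gene or within 1 kb for 42 members (71.2%), against 69.7% of all genes, and at both ends for 5 members, against 6.19% of all genes. The remaining 17 members had no region in the gene or within 1 kb, and the nearest region lay 1.07 to 28.4 kb away (median 8.43 kb). By family, all 6 Ifit genes and 9 of 10 Gbp genes had such a region, but 1 of 7 Ifitm genes and 0 of 2 Ifi44 genes did. Between these stood the Ifi200 genes with 7 of 11, the Oas genes with 5 of 11, the Irgm and Iigp genes with 2 of 3, the Ifi27 genes with 2 of 3 and the single genes with 4 of 6. With so few genes a family, the interval of each family other than Gbp (55.5 to 99.7%) includes the background share.

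**Figure D1:**
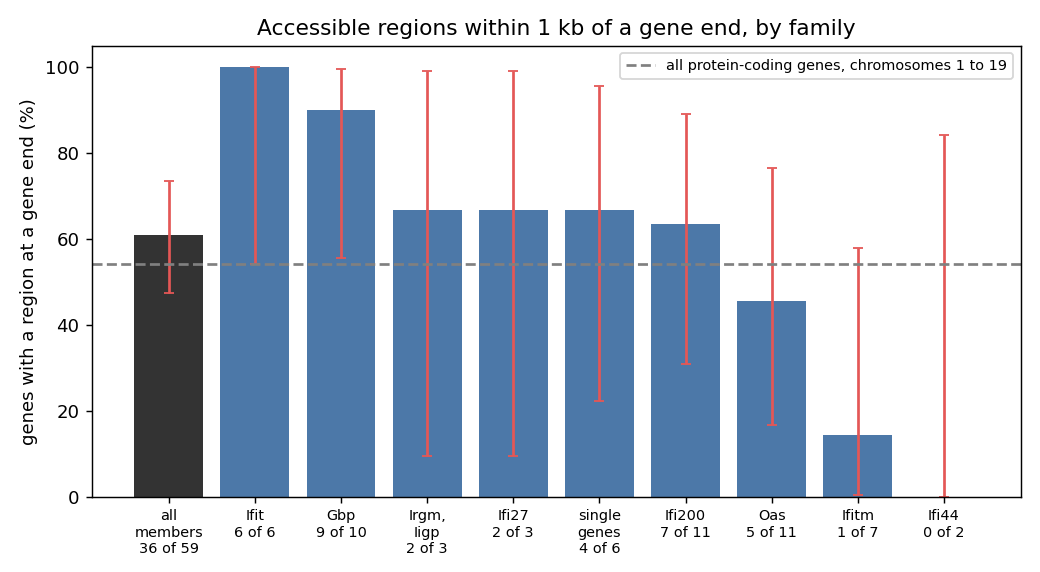
Share of members with an accessible region within 1 kb of either gene end (bars, percent) by family, with 95% exact binomial intervals (red) and the number of genes under each bar; the dashed line marks all protein-coding genes on chromosomes 1 to 19 (54.1%). The Ifit and Gbp bars stand at 100% and 90.0% and the Ifitm bar at 14.3%, while the bar for all 59 members, at 61.0%, lies close to the dashed line.

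In 31 of the 36 members with a region at an end, the region overlapped the annotated end itself, and in the other 5 it lay beside it, at a gap of 23 bp for Gbp3, 180 bp for Gbp2b, 490 bp for Oasl1, 527 bp for Ifit1bl1 and 953 bp for Oas3. Overlap of the annotated end itself was not counted over all protein-coding genes, so these counts have no background share. Just beyond the 1 kb limit were Eif2ak2 (1066 bp), Oas1d (1154 bp), Isg15 (1327 bp), Ifitm5 (1548 bp) and Gbp6 (1992 bp).

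The promoter sequences of RefSeq (GRCm38.p6, the assembly that mm10 names; 250 bases before the start and 50 from it on) were at hand for 45 of the 59 members and gave their strand and start. No sequence was used for Ifi204, Gbp4, Gbp6, Gbp8, Gbp9, Gbp10, Oas2, Oas1d, Oas1e, Usp18, Ifi27, Ifi27l2a, Ifi27l2b and Iigp1. The ISRE core searched was GAAA, any 2 bases and GAAA again, on either strand (TTTC, any 2 bases and TTTC on the other), and overlapping matches were counted one by one. In the sequences below, which run 5′ to 3′ along the gene and stop before the start, capitals mark the cores, and positions count from the start, with -1 the last base before it. A match describes letters and not a bound factor.

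The Ifit cluster (chromosome 19, 34550550 to 34662981) was the most densely accessible of the 6 clusters with 5 or more members. It had 14 regions in 112 kb, or 125 regions per Mb, against 26.3 per Mb over chromosomes 1 to 19. All 6 Ifit genes had a region within 1 kb of a start (100%, 54.1 to 100%), against 55.2% of all genes with a promoter sequence, which lies inside that interval. Ifit1 and its divergent neighbour Ifit1bl2, whose starts are separated by the 145 bases below, shared a region of 590 bp that covered both starts and both cores. Ifit1 binds viral RNA by the form of its cap.

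Ifit1 (chr19:34640744-34640888, plus strand): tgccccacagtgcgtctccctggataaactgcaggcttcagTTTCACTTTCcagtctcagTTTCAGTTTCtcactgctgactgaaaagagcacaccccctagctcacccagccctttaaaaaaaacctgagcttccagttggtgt

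Ifit3 and Ifit3b, near-identical copies whose promoter sequences matched at 258 of 300 bases (99.2% of the aligned bases), each had a region just upstream that did not reach the start. The regions were 518 bp wide for Ifit3 and 571 bp for Ifit3b, and they ended 88 and 79 bp before the starts. Each covered the lower-coordinate end of its gene model, which lies upstream of the start given by the promoter sequence. Ifit3, as known in humans, stabilises the complex of Ifit proteins on RNA. The 104 bases around the paired cores were identical in the copies and lay inside these regions except for their last bases in Ifit3.

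Ifit3 (chr19:34583343-34583446, plus strand): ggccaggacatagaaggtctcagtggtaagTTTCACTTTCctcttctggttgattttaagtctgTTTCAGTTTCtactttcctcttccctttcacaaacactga
Ifit3b (chr19:34607739-34607842, plus strand): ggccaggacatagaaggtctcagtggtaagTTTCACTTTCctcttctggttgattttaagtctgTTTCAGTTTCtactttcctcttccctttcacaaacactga

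The other Ifit genes had wider or more scattered regions. Ifit2 had a region of 834 bp over its start and a second of 328 bp inside the gene, 19300 bp from the start, and its promoter sequences held no core. Ifit1bl1 had 10 regions in the gene or within 1 kb, the most of any member, and its 70.1 kb gene model also spans Ifit3b, Ifit1bl2 and Ifit1. Regions of 570 and 118 bp covered its 2 annotated starts, each with the core TTTCATTTTC inside, and a region of 388 bp lay at its upper-coordinate end. Ifit3 also had a region of 575 bp at its other end, and Ifit3b another of 216 bp upstream of its start.

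**Figure D2:**
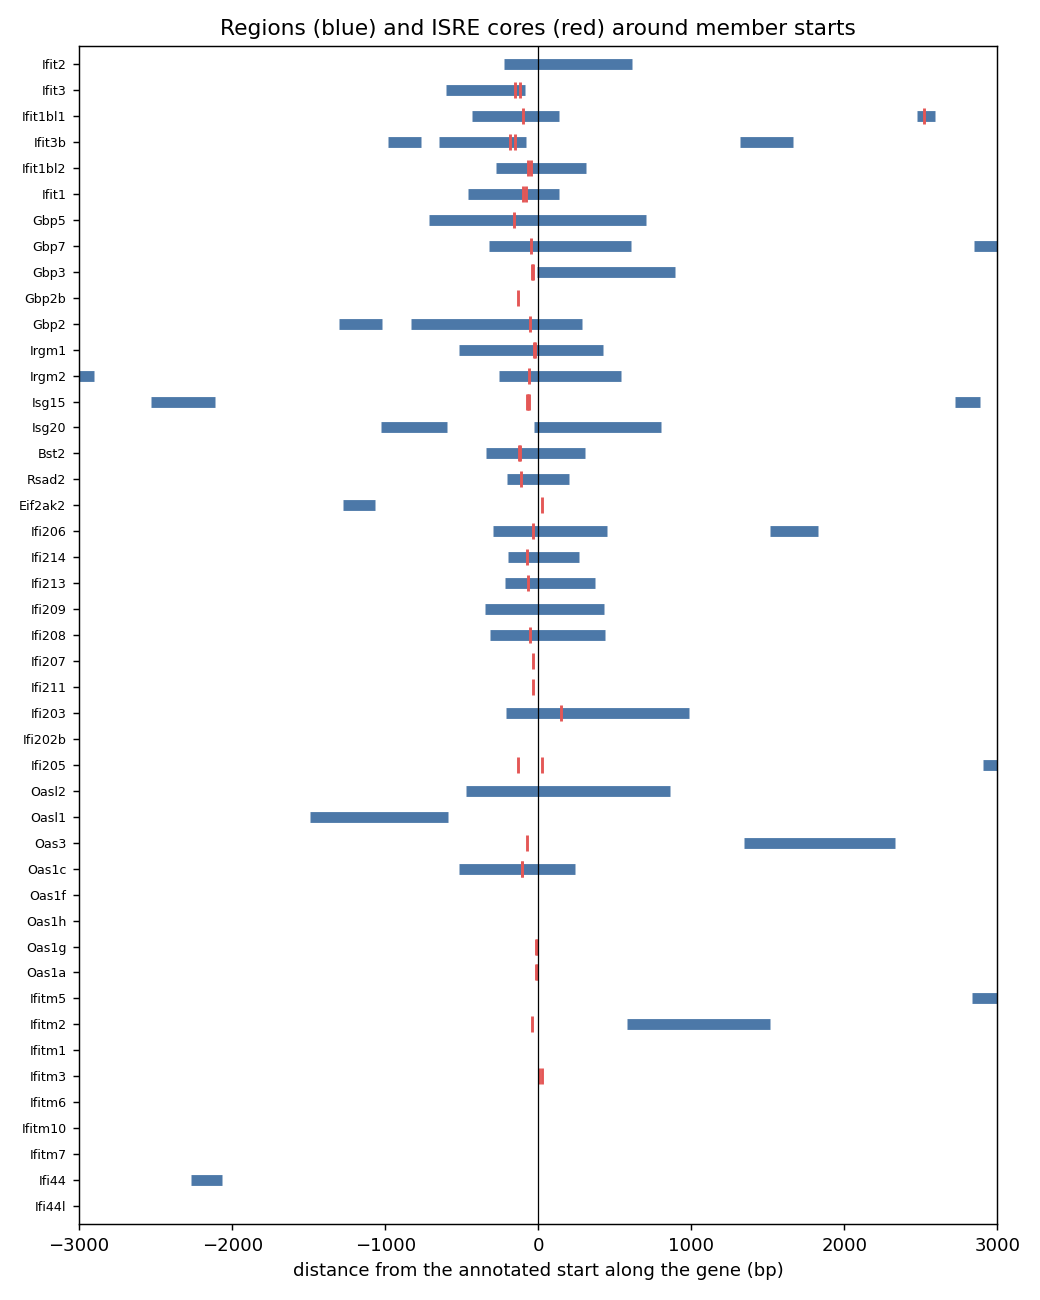
Accessible regions (blue bars) and ISRE cores (red ticks) within 3000 bp of the start of each member with a promoter sequence, aligned by the start (vertical line) and oriented along the gene; for genes with several starts, the one nearest a region is used. A region covers the start in 4 of 6 Ifit rows, 4 of 5 Gbp rows, both Irgm rows and 6 of 10 Ifi200 rows, whereas the rows from Oas1f to Oas1a hold no region. Among all genes with a promoter sequence, a region covers a start in 47.3%.

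The Gbp genes form a cluster on chromosome 3 (142496934 to 142638008, 5 genes) and another on chromosome 5 (105012513 to 105295871, 5 genes). Their products are large GTPases that assemble on pathogen vacuoles and bacteria. On chromosome 3, Gbp5, Gbp7, Gbp3 and Gbp2 had regions of 1423, 931, 902 and 1118 bp over their starts, and that of Gbp5 was the widest of all 92 regions at the member loci. The fifth, Gbp2b, had no region within 24.5 kb of its start, although its promoter held the same core letters, TTTCACTTTC, as that of Gbp2. The region of 1118 bp at the start of Gbp2 also lay within 1 kb of the far end of Gbp2b, as did a region of 284 bp, and Gbp7 had a region of 436 bp at its far end. These promoters are shown because the core lies inside the region in Gbp5, Gbp7 and Gbp2 and outside any region in Gbp2b.

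Gbp5 (chr3:142496739-142496808, plus strand): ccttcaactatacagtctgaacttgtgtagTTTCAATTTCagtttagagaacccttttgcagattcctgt
Gbp7 (chr3:142530253-142530322, plus strand): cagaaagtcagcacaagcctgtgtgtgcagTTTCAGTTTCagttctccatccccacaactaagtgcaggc
Gbp2 (chr3:142620574-142620643, plus strand): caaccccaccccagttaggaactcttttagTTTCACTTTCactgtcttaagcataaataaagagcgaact
Gbp2b (chr3:142594680-142594749, plus strand): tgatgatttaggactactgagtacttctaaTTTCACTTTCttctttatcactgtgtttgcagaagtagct

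In Gbp3, 2 overlapping cores lay at positions -45 and -39, and the region began 23 bp past the lower-coordinate end of the gene and so left them out. On chromosome 5, 4 of 5 Gbp genes had a region over the upper-coordinate end, 1180 bp wide for Gbp8, 1055 bp for Gbp10, 658 bp for Gbp4 and 566 bp for Gbp9. Gbp6 had a region of 867 bp inside the gene, 1992 bp from that end. Gbp4 had a further region of 541 bp past its lower-coordinate end.

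Irgm1 and Irgm2, which belong to the interferon-induced GTPases that guard host membranes and keep related GTPases in check, lie apart on chromosome 11 and had 1 region each, 948 and 800 bp wide, over the start. Both promoters held cores inside the region, and in Irgm1 a pair of cores overlapped.

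Irgm1 (chr11:48871421-48871480, minus strand): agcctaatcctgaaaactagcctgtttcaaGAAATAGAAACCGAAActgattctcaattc
Irgm2 (chr11:58214883-58214952, plus strand): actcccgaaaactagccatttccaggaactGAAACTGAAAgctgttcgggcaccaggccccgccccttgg

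The Ifi200 genes of chromosome 1 (173468485 to 174031755, 11 genes from Ifi206 to Ifi205) include some for proteins with a domain that binds DNA, such as Ifi204 and Ifi202b. Here 6 of 10 members with a promoter sequence had a region over the start: Ifi203 (1193 bp), Ifi209 (779 bp), Ifi208 (749 bp), Ifi206 (744 bp), Ifi213 (588 bp) and Ifi214 (463 bp). That is 60.0% (26.2 to 87.8%), and the 47.3% of all genes with a promoter sequence lies inside that interval. Ifi204, without a promoter sequence, had a region of 1032 bp over its upper-coordinate end, and Ifi203 had a second region, of 182 bp, at its far end. No region lay within 1 kb of the starts of Ifi207, Ifi211, Ifi205 and Ifi202b, where the nearest was 15.2, 6.68, 2.91 and 23.7 kb away. Ifi202b, which in mice opposes DNA sensing by Aim2, also held no core.

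Some promoters of this family formed groups at 80% or more of 300 matching bases, and the members of each group were alike in having a region at the start or lacking one. Ifi208 matched Ifi213 at 94.0% and Ifi206 at 93.0% of 300 bases, and Ifi214 matched Ifi209 at 95.7%; all 5 had a region over the start. Ifi207 matched Ifi211 at 86.7%, and neither had one. Ifi205, also without a region, matched Ifi211 at 63.0% of 300 bases and was in no group. The core GAAATCGAAA occurred in 6 members of the family and lay inside a region in 5 of them, the exception being Ifi207. Of the 5, Ifi206, Ifi213 and Ifi208 are near-identical copies and not independent. Over all promoters, 35.5% of 690 core positions of any letters lay inside a region. The sequences are shown with a region at the start first (Ifi206, Ifi213, Ifi208, Ifi214, Ifi203) and those without one after them (Ifi207, Ifi211, Ifi205); the stretches of Ifi213 and Ifi208 are identical over 70 bases.

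Ifi206 (chr1:173491319-173491388, minus strand): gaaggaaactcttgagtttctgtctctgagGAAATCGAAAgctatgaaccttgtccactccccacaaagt
Ifi213 (chr1:173599306-173599375, minus strand): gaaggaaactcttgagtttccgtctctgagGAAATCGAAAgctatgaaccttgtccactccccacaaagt
Ifi208 (chr1:173673577-173673646, plus strand): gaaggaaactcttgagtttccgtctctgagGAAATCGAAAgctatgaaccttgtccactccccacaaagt
Ifi214 (chr1:173535997-173536066, minus strand): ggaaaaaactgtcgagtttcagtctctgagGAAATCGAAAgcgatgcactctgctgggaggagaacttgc
Ifi203 (chr1:173942493-173942557, minus strand): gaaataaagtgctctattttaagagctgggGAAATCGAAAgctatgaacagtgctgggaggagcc
Ifi207 (chr1:173741811-173741880, minus strand): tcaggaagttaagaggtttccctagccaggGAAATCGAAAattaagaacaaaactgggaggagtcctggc
Ifi211 (chr1:173913047-173913113, minus strand): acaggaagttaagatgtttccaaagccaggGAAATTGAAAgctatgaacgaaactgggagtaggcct
Ifi205 (chr1:174031850-174031919, minus strand): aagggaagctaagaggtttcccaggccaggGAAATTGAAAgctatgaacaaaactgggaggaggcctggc

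Ifi209 had a region over its start but no core, and its sequence at the place of the Ifi214 core differed from that core by G1T, counted from the first base of the core. Capitals mark that place.

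Ifi209 (chr1:173630750-173630819, plus strand): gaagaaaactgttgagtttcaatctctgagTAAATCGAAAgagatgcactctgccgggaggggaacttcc

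Across all families, 7 pairs of members matched at 80% or more of 300 promoter bases. In 5 of the pairs both members had a region at the start, in 2 neither had (Oas1g with Oas1a, and Ifi207 with Ifi211), and in 0 the pair was mixed. The share of alike pairs given by the background share was not computed. The pairs are not independent: the 7 came from 5 groups of near-identical copies. Those with a region were Ifi206, Ifi213 and Ifi208, which pair with one another, Ifi214 with Ifi209, and Ifit3 with Ifit3b. Reads from such copies can map to either one, and the rule by which the authors placed them is not given in the sources used; its part in the presence or absence of these regions was not tested.

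Of the 8 Oas genes with a promoter sequence, 3 had a region within 1 kb of a start (37.5%, 8.52 to 75.5%), and the 55.2% of all genes lies inside that interval. Their main cluster (chromosome 5, 120730333 to 120921648) holds 9 genes, of which 3 had a region within 1 kb of an end: Oas1c with 753 bp over its start, Oas2 with 376 bp over its upper-coordinate end, and Oas3 with 153 bp beyond its far end. Oas3, which senses long double-stranded RNA, also had a region of 990 bp inside the gene, 1345 bp past its start, and its core lay outside both. Oas1a, Oas1g, Oas1f, Oas1h and Oas1e had no region in the gene or within 1 kb. Oas1g and Oas1a matched at 87.0% of 300 promoter bases, and each held a pair of overlapping cores close to the start, with the nearest region 28.4 kb and 8.45 kb away. Oas1c held a similar pair inside its region.

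Oas1c (chr5:120812583-120812658, minus strand): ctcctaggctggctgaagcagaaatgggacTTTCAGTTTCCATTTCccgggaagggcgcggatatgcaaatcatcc
Oas1g (chr5:120887614-120887661, minus strand): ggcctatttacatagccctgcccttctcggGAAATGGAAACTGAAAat
Oas1a (chr5:120907526-120907575, minus strand): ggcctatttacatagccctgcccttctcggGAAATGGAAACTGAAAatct

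The 2 Oasl genes elsewhere on chromosome 5 both had a region: 1333 bp over the start of Oasl2, and 905 bp for Oasl1, which in mice limits translation of Irf7 mRNA, ending 587 bp before its start. Neither promoter held a core.

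Among the single genes, Bst2, Rsad2 and Isg20 had a region over a start. The widths were 644 bp for Bst2, which tethers virus particles to the cell surface, 403 bp for Rsad2, whose product viperin makes an antiviral nucleotide, and 833 bp for Isg20, an exonuclease, which had a further region of 432 bp upstream. Usp18, which removes Isg15 from proteins and dampens receptor signalling, had regions of 368 and 516 bp at its lower-coordinate end. Isg15, the ubiquitin-like modifier, and Eif2ak2, the kinase PKR, had none. The nearest regions were 169 bp wide at 1327 bp from Isg15 and 209 bp wide at 1066 bp from Eif2ak2. Isg15 is shown because its promoter held 3 overlapping cores, the most of any member, and none lay inside a region, in contrast to the cores of Bst2 and Rsad2.

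Bst2 (chr8:71537557-71537632, minus strand): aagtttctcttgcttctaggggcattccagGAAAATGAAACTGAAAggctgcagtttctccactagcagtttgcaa
Rsad2 (chr12:26456533-26456602, minus strand): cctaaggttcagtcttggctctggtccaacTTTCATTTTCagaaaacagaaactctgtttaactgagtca
Isg15 (chr4:156200845-156200926, minus strand): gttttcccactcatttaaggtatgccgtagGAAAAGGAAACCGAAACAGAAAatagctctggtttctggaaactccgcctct

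Iigp1, a GTPase that acts on pathogen vacuoles, had regions of 569 and 477 bp inside the gene and none within 1 kb of an end, and the nearest lay 2029 bp from one. Some Ifitm proteins block entry of enveloped viruses at membranes. Of the Ifitm genes, Ifitm2 had a region of 937 bp, 579 bp downstream of its start, and the core of its promoter lay outside it. Ifitm1, Ifitm3, Ifitm5, Ifitm6 and Ifitm7 had no region in the gene or within 1 kb, and Ifitm10 had 3 regions inside the gene, of 235 to 610 bp. Ifi44 and Ifi44l had none, and 1 region of 200 bp lay between them. In the Ifi27 family, Ifi27 and Ifi27l2a, whose models overlap, shared a region of 1071 bp at the lower-coordinate end, Ifi27l2a had another of 914 bp at its upper-coordinate end, and Ifi27l2b had none. The promoter of Ifitm2 is shown as the member of its family with a core and a region within 1 kb of the start. That region lay over the far, lower-coordinate end of this short gene and did not cover the start.

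Ifitm2 (chr7:140955968-140956037, minus strand): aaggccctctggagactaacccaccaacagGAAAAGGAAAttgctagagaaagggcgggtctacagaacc

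The ISRE core was found in promoter sequences of 30 of 45 members (66.7%, 95% exact interval 51.0 to 80.0%), against 3.98% of 16457 genes with a promoter sequence. A stricter core, with C as the first of the 2 free bases, was in 14 members (31.1%), against 0.839% of genes. GAS (TTCNNNGAA) was in 11 (24.4%, 12.9 to 39.5%), against 9.05%, and among these were Gbp5, Gbp7 and Irgm2. The TATA box (TATAAA) was in 14 (31.1%, 18.2 to 46.6%), against 15.0%, including Ifi206, Ifi214, Ifi213, Ifi209, Ifi208, Ifi202b and Ifi205. The GC box (GGGCGG) was in 13 (28.9%, 16.4 to 44.3%), against 50.3%. The ETS motif (GGAAGTG) was in 15.6% of members against 13.9% of genes, CCAAT was in 35.6% against 42.3%, and the NF-kB motif was in 0 of 45 members against 0.182% of genes. All motifs were searched on both strands.

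**Figure D3:**
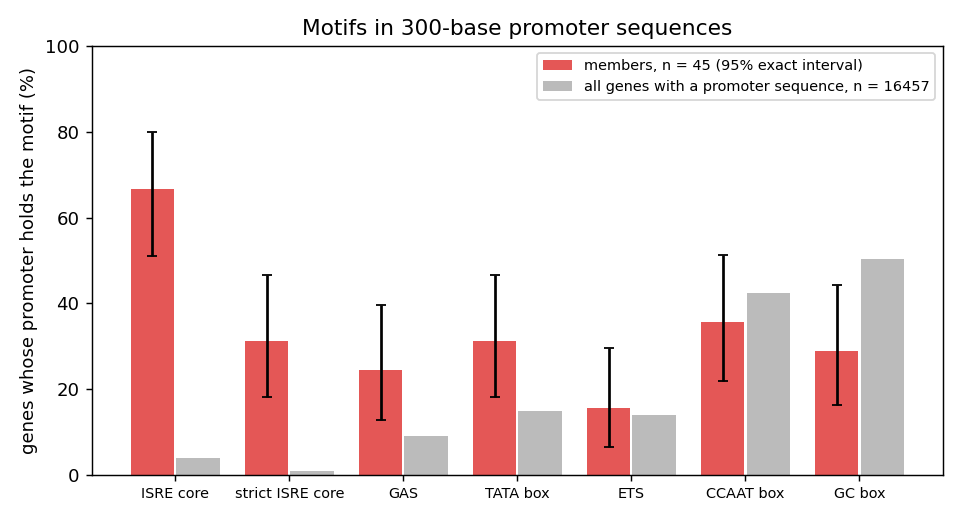
Share of genes whose 300-base promoter sequence holds each motif on either strand, for the 45 members (red, with 95% exact binomial intervals) and for all 16457 genes with a promoter sequence (grey). The ISRE core stands at 66.7% of members against 3.98% of all genes, and the GC box at 28.9% against 50.3%.

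Of the 30 members with a core, 20 had a region within 1 kb of a start (66.7%), and of the 15 without, 5 did (33.3%). Family make-up enters this contrast, since of the 10 members with neither, 5 were Ifitm genes and 2 were Ifi44 genes. Within families the order varied. The share was higher with a core in the Ifi200 and Ifitm genes, lower in the Oas and single genes, and equal in the Ifit genes. Over all genes the shares were 53.4% with a core and 55.3% without. Counting either gene end, 22 of the 30 members with a core had a region, against 343 of the 655 genes with a core. As a share of all 45 members, 48.9% had both a core and a region, against 2.08% of all genes. That contrast mostly carries the higher frequency of the core in members. The promoters held 43 distinct core positions, of which 24 lay wholly inside a region (55.8%, 39.9 to 70.9%), against 35.5% of 690 core positions in all promoters. The 43 positions came from 30 members, and those that overlap or lie in near-identical promoters are not independent. Inside a region, a core lay at a median of 112.5 bp from its centre (11 to 236 bp). By letters, GAAACTGAAA (read on the strand that gives GAAA) was the most frequent, with 10 positions, 7 of them inside a region. GAAAATGAAA, which includes both starts of Ifit1bl1, lay inside in 4 of 4 and GAAAAGGAAA in 0 of 3. The same letters were not counted over all promoters.

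The background at starts changed with CpG content, and members were mostly CpG-poor. CpG-rich promoters are accessible in most cell types, and the CpG ratio used here is the number of CG steps against that given by the C and G content of the sequence. Its median was 0.237 in members and 0.628 in all genes, and 32 of 45 members (71.1%) fell in the CpG-poor class, the lowest of 3 classes with near-equal numbers of genes. In that class, with ratios up to 0.357, 19 of 32 members had a region within 1 kb of a start (59.4%, 40.6 to 76.3%), against 13.2% of 5487 genes. In the middle class the shares were 6 of 12 members (50.0%, 21.1 to 78.9%) and 65.3% of genes, and the highest class held 1 member, Ifitm10, without a region. Within the CpG-poor class, 16 of 24 members with a core had a region at the start (66.7%, 44.7 to 84.4%), against 17.3% of 266 other genes with a core. For members without a core it was 3 of 8 (37.5%, 8.52 to 75.5%), against 12.8% of 5189 other genes without one.

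**Figure D4:**
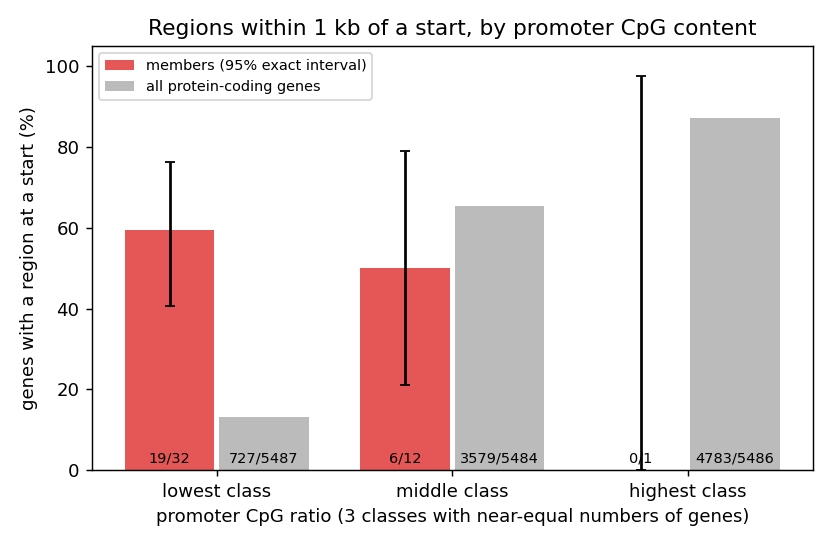
Share of genes with an accessible region within 1 kb of a start, for members (red, 95% exact binomial interval) and for all protein-coding genes with a promoter sequence (grey), in 3 classes of all genes by promoter CpG ratio; numbers give genes with a region over genes in the class. In the CpG-poor class the members stand at 59.4% against 13.2%, and in the middle class at 50.0% against 65.3%.

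The loci held 92 regions in all: 42 at a member's end, 26 inside members and 24 between cluster neighbours. Regions at member ends had a median width of 701 bp (476 to 927 bp between quartiles), close to the 715 bp at ends of all protein-coding genes. Those inside members had a median of 321 bp, against 276 bp inside all genes. The 21 regions that covered a member start had a median of 779 bp, against 843 bp over all covered starts, and they covered the starts of 21 of 45 members (46.7%), against 47.3% of all genes. Measured along the gene with negative values upstream, their centres lay from -272 to 206 bp of the start, with a median of 36 bp. After Gbp5, the widest regions of the loci were those at Oasl2 (1333 bp), at the end of the non-member Mndal (1254 bp), at Ifi203 (1193 bp) and at Gbp8 (1180 bp).

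Of the 24 regions between neighbours, 14 lay in the Ifi200 span and 5 in the chromosome 5 Gbp span, the longest of the clusters. Per length of the span they were 24.9 per Mb in the Ifi200 span and 17.6 per Mb in the chromosome 5 Gbp span, against 15.7 per Mb in the Oas span. The Ifi200 span held 31 regions of any place over 563 kb (55.0 per Mb), and 3 of its 14 between neighbours lay at or in Mndal, a gene of the same family that the symbol rule does not take in. The chromosome 5 Gbp span held 12 regions of any place (42.3 per Mb), of which the 5 between neighbours were between 155 and 717 bp wide, with 4 of them between Gbp4 and Gbp10 and 1 between Gbp8 and Gbp9. Between neighbours lay 3 of the 8 regions of the Oas cluster (41.8 per Mb for all 8), 1 of the 2 of the Ifitm cluster (29.4 per Mb for both), 0 of 7 in the chromosome 3 Gbp cluster and 0 of 14 in the Ifit cluster. The densities count gene-rich spans, whereas 26.3 per Mb counts whole chromosomes.

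**Figure D5:**
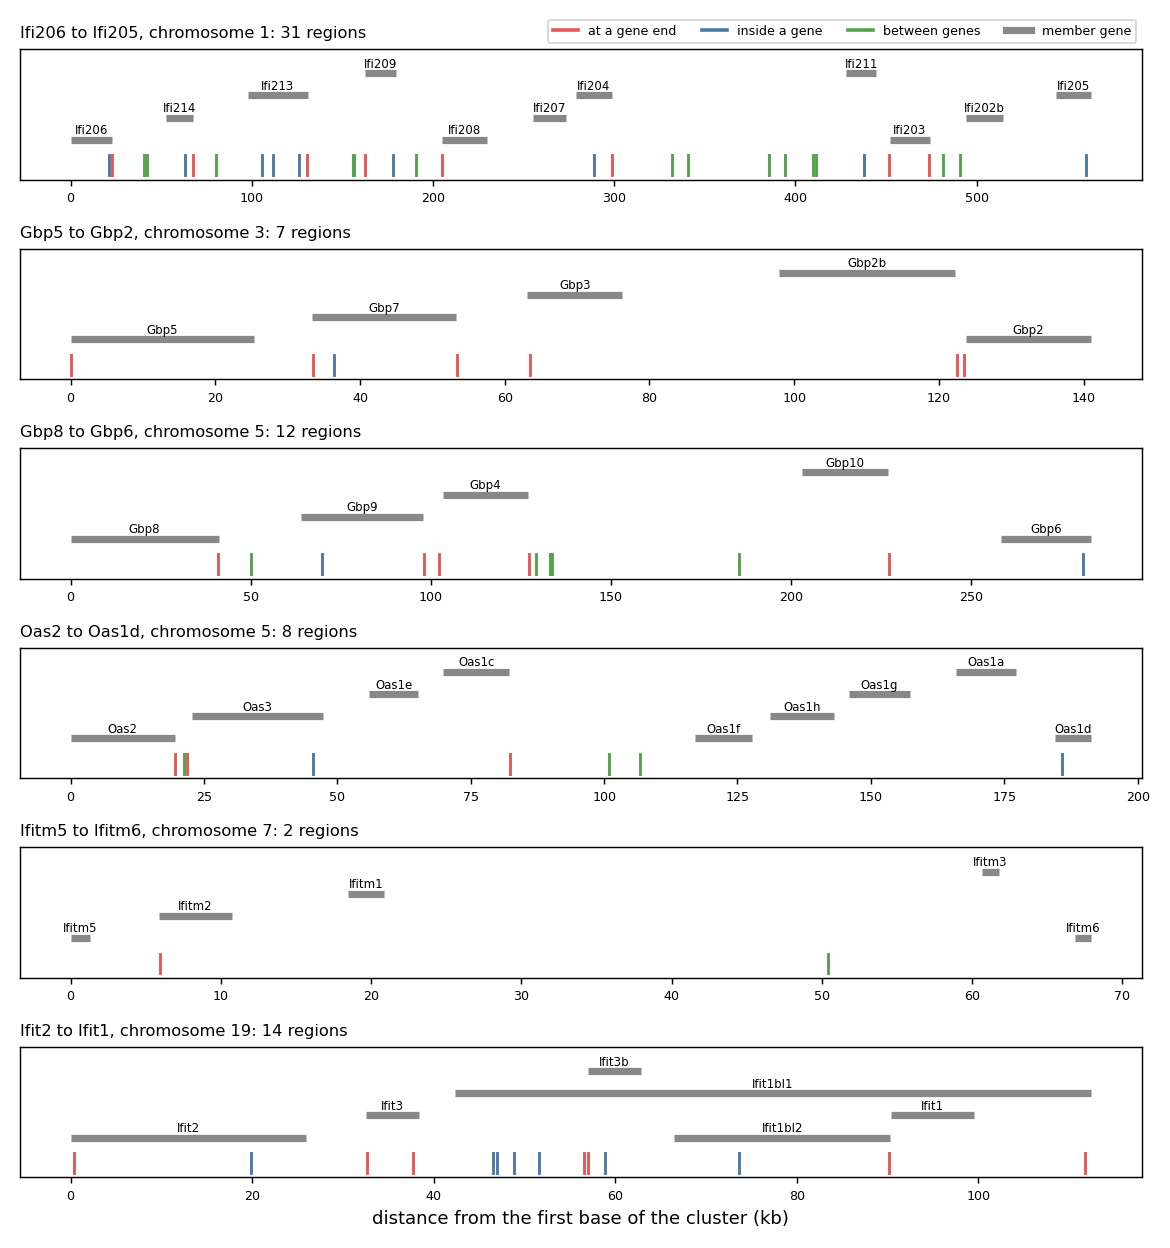
Member genes (grey bars) and accessible regions (ticks) in the 6 clusters with 5 or more members, by distance from the first base of each cluster in kb; ticks are red at a gene end, blue inside a gene and green between genes. Regions crowd the Ifit cluster (14 in 112 kb), while the stretch of the Oas cluster with Oas1f, Oas1h, Oas1g and Oas1a has a tick in none of these genes.

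Most of the other interferon pathway genes had a region at 1 gene end or both. All 9 receptor and kinase genes (Ifnar1, Ifnar2, Ifngr1, Ifngr2, Il10rb, Ifnlr1, Jak1, Jak2 and Tyk2) had a region at a gene end, and so did all 9 transcription factor genes, among them Irf5 with 276 bp. Of 10 sensor and adaptor genes, X-linked Tlr7 included, 8 had one, with Tlr3 and Tlr9 the exceptions, and of 5 inhibitor genes other than Usp18 4 had one, with Ptpn6 the exception. Among 30 other interferon-induced genes outside the symbol rule, 27 had one, and Tgtp1, Aim2 and Rtp4 did not. Together 57 of 63 such genes had a region at an end (90.5%, 80.4 to 96.4%), against 61.0% of the members and 54.1% of all protein-coding genes on chromosomes 1 to 19. These lists were not matched to the members on CpG content. The interval covers counting error only, and some neighbours may share a region: the widest end region was 1234 bp for both Parp9 and Dtx3l. In Tgtp2, Cxcl10, Cxcl9 and Ifnlr1 the widest end region was narrow, at 221, 226, 268 and 290 bp.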

How the data were processed

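ATAC-seq regions of 4 libraries (2 DDX55 KO, 2 WT) were analysed from 1 deposited list. Tools named in the submitters' processing notes are fastp 0.12.4, Bowtie2, SAMtools 1.15.1, MACS3 3.0.0b1 and build mm10. How the peaks were called and joined, and how duplicates, multiply mapped reads and transposase offsets were treated, is not given in the sources used. Each line of the deposited list holds a sequence name, a start and an end and no read count or score. Depth per library is unknown.

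Starts were converted to 1-based positions. Genes came from the RefSeq table of GRCm38.p6 and promoters, starts and strands from its promoter table. A region counted for a gene end when it shared 1 bp or more with the window from 1 kb before to 1 kb after that end. Members at most 200 kb apart formed a cluster, which gave 9 clusters with 48 members. Motif, overlap and joining steps were tested on simulated data. No test between groups and no chance test over genes was made. Intervals are 95% exact (Clopper-Pearson). Promoter identity came from global alignment without penalty for end gaps (Biopython 1.88); other steps used Python 3.11.15, pandas 2.3.3 and SciPy 1.17.1.

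The members and lists were chosen with earlier results of these data known. All members are accounted for by family, with widths given for those with a region at an end. Promoters with a core and a region within 1 kb of the start are printed, 1 to 5 a family, except those of Gbp3 and Ifit1bl1. That of Ifit1bl2 is shown only through the stretch it shares with Ifit1. Promoters without such a region (Gbp2b, Ifi207, Ifi211, Ifi205, Oas1g, Oas1a, Isg15) and Ifi209 were chosen as contrasts after their values were seen. The CpG classes and the identity groups were also chosen after values were seen. The list entries Mnda and Pyhin1 matched the members Ifi211 and Ifi209 through older symbols and were not counted among the other genes.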

Additional observations from a re-analysis of the deposited data

How the results depend on the processing

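No paired analysis was possible because the list carries no value for any library; for the same reason no library could be left out. The share of members with a region at a gene end ranged from 54.5% (the 11 members outside clusters) to 71.2% (a region anywhere in the gene or within 1 kb) over the 12 alternatives, all inside the interval of the 61.0% reported. It was 67.3% without the Ifitm genes. The count of 92 regions ranged from 68 (genes and 1 kb) to 92 over 6 alternatives, and the median width of 701 bp from 589 to 766 bp over 3. With C required as the first free base of the core, the share of members with a core was 31.1% in place of 66.7%, and that with a core and an end region was 22.2% in place of 48.9%; the stricter pattern is contained in the other. GAANNGAA, planned as a wider core, has another spacing and does not contain the main one; it was in 31.1% of members and 21.1% of all genes. GAANNNGAA, which keeps the spacing and was chosen after seeing the data, was in 73.3% and 23.0%. The share of CpG-poor members with a region at a start was 59.4%, against 13.2% of all genes in that class. The share of members ranged from 50.0% to 66.7% over 5 alternatives that were chosen after seeing the data, and the background also changed. Among the 4116 genes of lowest CpG ratio it was 58.3% of members against 9.38% of all. Among the 8229 of lowest ratio the contrast was smaller, at 58.1% against 26.2%. For regions that cover a start, in the main class, it was 50.0% against 7.33%. Against the same 13.2%, the share of members was 66.7% without the Ifitm genes. With 1 member kept for each group of near-identical promoters it was 57.7%.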
